A study of Caenorhabditis elegans with 12 samples.

Results

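Transcript levels of 7 genes that mark the intestine of the nematode Caenorhabditis elegans were followed in whole worms of both sexes, fed and fasted. The genes were taken from a given list: elt-2 and elt-7 (transcription factors), act-5 and ifb-2 (structural genes of the brush border), and ges-1, pho-1 and pept-1 (enzymes and a transporter). Each gene is represented by the Affymetrix probe set with the highest mean among those annotated to exactly this gene, and the 7 stand among 17118 genes with such a probe set. The study held 12 arrays of the wild-type strain N2, 3 for each of 4 groups: fed hermaphrodites, fasted hermaphrodites, fed males and fasted males. All worms grew at 20 C, were separated by sex as young adults by filtration, received 200 ug/ml 5-fluoro-2'-deoxyuridine (FUdR, which blocks DNA synthesis and keeps progeny from hatching) from then on, and were collected whole on day 4 of adulthood. The fasted groups had been without food for 48 h from day 2, while the fed groups ate ad libitum. The design text describes 3 independent experiments with 1 sample per group in each.

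The worm intestine is a tube of a few large cells that digest and absorb food, store fat and, in hermaphrodites, make yolk. Its identity is set by GATA transcription factors: ELT-2 is the main activator of intestinal genes after the gut is specified, and ELT-7 is a related factor that acts alongside it. The surface facing the lumen is a brush border of microvilli built on the actin ACT-5 and anchored in the terminal web, a belt of intermediate filaments that contains IFB-2. GES-1 is a gut esterase, PHO-1 an intestinal acid phosphatase, and PEPT-1 the proton-coupled transporter that takes up short peptides from the lumen.

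All values are log2 signals as deposited, so that a difference of 1 is a doubling of the signal, with SD for levels, SE for differences and n = 3 arrays per group. A difference was called when its p-value from limma, adjusted by Benjamini and Hochberg over all 15913 probe sets tested, lay under 0.05. All 7 members passed the filter on low values, and none of their values was 0. The number of arrays limits the precision. Because whole worms were measured, a change within the intestine and a change in its share of the worm's RNA cannot be told apart.

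Marker lists of other tissues separated the sexes. The summed signal of 11 oocyte and maternal genes was 88791 to 93438 in fed hermaphrodites and 2897 to 2996 in fed males, and that of 6 male somatic genes was 64.9 to 134 in fed hermaphrodites and 5667 to 6827 in fed males. The median change of all probe sets with fasting was 0.09 in hermaphrodites and 0.23 in males. After median centring these medians were 0.04 and 0.02, so small changes in males have to be read against that shift. The difference between the 3' and 5' control probe sets of Gapdh lay between -0.05 and 0.41 on all arrays. That of actin lay between 1.05 and 1.18 in fed and 1.18 and 1.47 in fasted hermaphrodites, and between 0.77 and 1.08 in fed and 1.34 and 1.38 in fasted males.

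**Figure D1:**
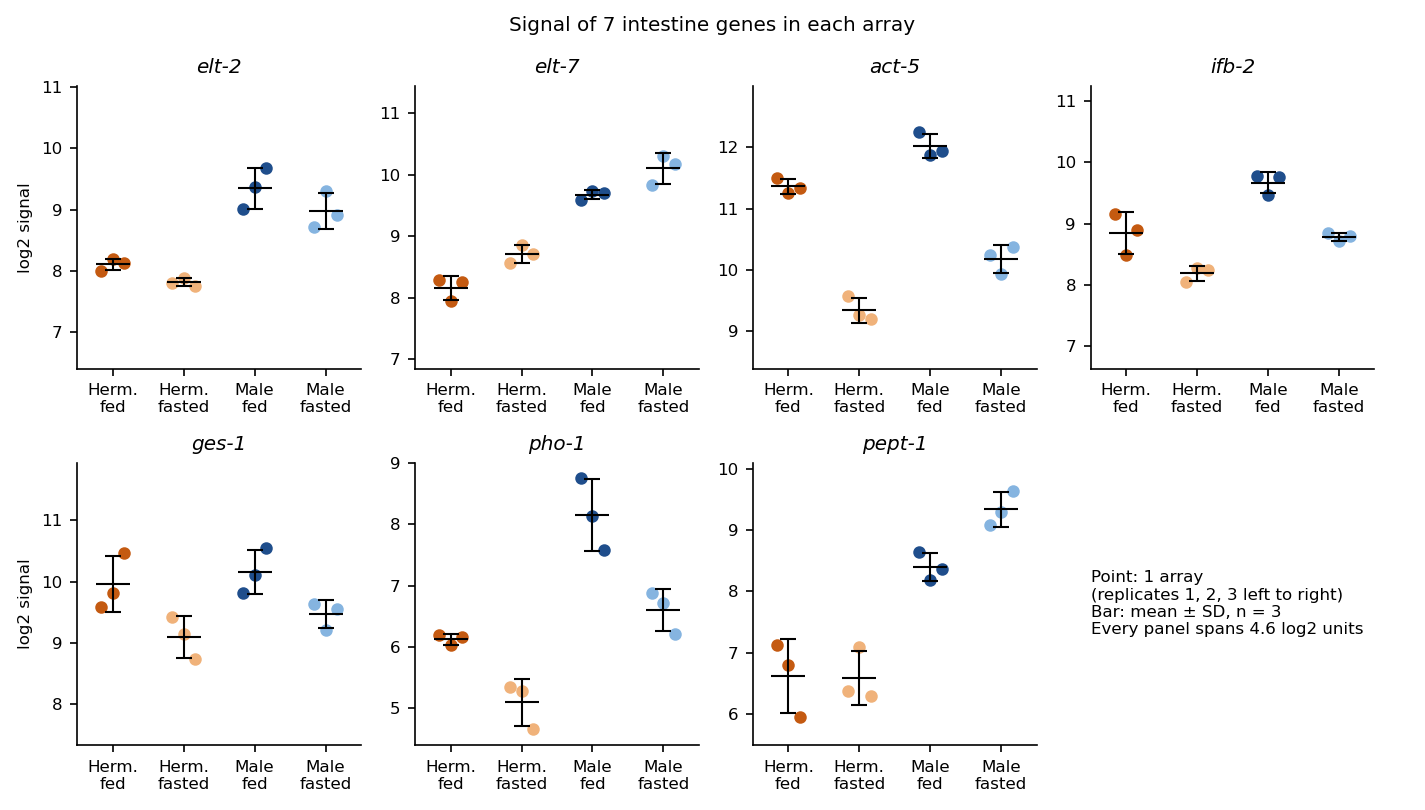
Log2 signal of each of the 7 genes (vertical axis) on every array (points, replicates 1 to 3 from left to right) in the 4 groups, with bars at the mean ± SD of 3 arrays. The panels of act-5, ifb-2, ges-1 and pho-1 step down from fed to fasted worms in both sexes. That of elt-7 steps up in both, and that of pept-1 steps up in males. Between the sexes at the same food state, the arrays overlap only in the ges-1 panel.

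Without food the members moved in different directions. The structural genes act-5 and ifb-2 fell in both sexes. In hermaphrodites act-5, ifb-2 and ges-1 fell and elt-7 rose, so that 3 of 7 members were lower and 1 was higher, where 5.69% of all probe sets were lower, 5.72% higher and 11.4% called in all. In males act-5, ifb-2 and pho-1 fell and pept-1 rose, again 3 lower and 1 higher of 7, where 8.31% of all probe sets were lower, 19% higher and 27.3% called in all. Higher probe sets made up 69.6% of all calls in males on the deposited scale, 56.6% after quantile normalization and 41.9% after median centring. The median change of the 7 was -0.66 in hermaphrodites and -0.68 in males, beside the medians of all probe sets given above. The arrays of fed and fasted worms did not overlap for 6 of 7 members in hermaphrodites and 6 of 7 in males, against 30.2% and 44.6% of all probe sets.

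Of the transcription factors, elt-2 did not pass the test for fasting in either sex. It stood at 8.0, 8.19 and 8.13 in fed and 7.81, 7.88 and 7.75 in fasted hermaphrodites, and at 9.01, 9.36 and 9.67 in fed and 8.72, 9.30 and 8.92 in fasted males. Fed and fasted arrays were close but did not overlap in hermaphrodites, and they overlapped in males. The difference was -0.29 ± 0.19 in hermaphrodites (95% interval -0.70 to 0.12, adjusted p = 0.374) and -0.37 ± 0.19 in males (-0.77 to 0.04, adjusted p = 0.176). In males it was called after median centring (-0.58, adjusted p = 0.0497, the lowest of a range of 0.0497 to 0.50 over 23 alternatives). The other probe set of elt-2, 175269_at, gave -0.62 ± 0.42 and -0.45 ± 0.42, with adjusted p of 0.399 and 0.477.

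The related factor elt-7 was higher in fasted worms on every array of both sexes. Its arrays read 8.28, 7.94 and 8.25 in fed and 8.57, 8.86 and 8.71 in fasted hermaphrodites, and 9.59, 9.73 and 9.71 in fed and 9.83, 10.31 and 10.17 in fasted males. It rose by 0.55 ± 0.15 in hermaphrodites (adjusted p = 0.0346). In males the difference was 0.43 ± 0.15 (95% interval 0.10 to 0.76) and missed the threshold (adjusted p = 0.0544). Both values were close to the threshold. The call in hermaphrodites held in 13 of 23 alternatives (adjusted p from 0.0237 to 0.125) and ended without fed replicate 1 (0.0517), 2 (0.122) or 3 (0.0519), fasted replicate 2 (0.125) or 3 (0.0846) or male fed replicate 2 (0.0511). It also ended when only hermaphrodite arrays were fitted (0.0734), in a fit with no variance trend (0.0521), on hybridization controls (0.062) and after quantile normalization (0.0814). In males elt-7 was called in 7 of 23 (0.0204 to 0.384), among them the fit with a replicate block (0.0438) and those without male fasted replicate 1 (0.0204) or hermaphrodite fed replicate 2 (0.0499).

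The actin gene act-5 had the largest fasting change of the 7 in both sexes. In hermaphrodites it went from 11.50, 11.25 and 11.33 to 9.58, 9.26 and 9.20, and in males from 12.25, 11.87 and 11.94 to 10.24, 9.93 and 10.37. Every fasted array of either sex lay below every fed array. The fall was 4.04-fold in hermaphrodites (-2.01 ± 0.15, adjusted p = 3.23e-06) and 3.59-fold in males (-1.84 ± 0.15, adjusted p = 6.40e-06). Within the numbered experiments it was -1.92, -1.99 and -2.13 in hermaphrodites and -2.02, -1.94 and -1.57 in males. It was called in all 23 alternatives in each sex, between -2.13 and -1.91 in hermaphrodites and between -2.06 and -1.64 in males. The difference between the 3' and 5' actin control probe sets, given above, was also larger in fasted males than in fed males on every array. The part of RNA quality in the act-5 change was not tested.

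Other actin genes were measured beside act-5. Of the 2 other actin genes with a probe set of 1 gene, act-3 and act-4, neither was called in hermaphrodites, at -0.07 ± 0.18 (95% interval -0.47 to 0.34) and -0.11 ± 0.12 (-0.38 to 0.16), and neither had an unadjusted p under 0.05. In males both fell, act-3 by 0.73 ± 0.18 (adjusted p = 0.0114) and act-4 by 0.70 ± 0.12 (adjusted p = 0.00139). The act-3 call ended after quantile normalization (0.0935) and on hybridization controls (0.0605), of a range of 4.75e-04 to 0.0935. The act-5 probe set, 189551_s_at, carries the suffix by which the manufacturer marks sets whose probes can match more than 1 transcript, as do those of ifb-2, ges-1 and pho-1.

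The intermediate filament gene ifb-2 also fell in both sexes. It stood at 9.15, 8.48 and 8.90 in fed and 8.04, 8.28 and 8.24 in fasted hermaphrodites, and at 9.78, 9.47 and 9.75 in fed and 8.84, 8.71 and 8.79 in fasted males. The fed arrays were above the fasted arrays in each sex. The change was -0.66 ± 0.17 in hermaphrodites (adjusted p = 0.0251) and -0.88 ± 0.17 in males (adjusted p = 0.00227). In males the call held in all 23 alternatives. In hermaphrodites it held in 18 of 23 (adjusted p from 0.00565 to 0.106) and ended without fed replicate 1 (0.106) or 3 (0.0709), without fasted replicate 1 (0.0746) or 3 (0.0563) and when only hermaphrodite arrays were fitted (0.0711).

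The gut esterase gene ges-1 varied more between replicates than act-5. Its arrays read 9.59, 9.81 and 10.47 in fed and 9.42, 9.14 and 8.74 in fasted hermaphrodites, and 9.82, 10.11 and 10.54 in fed and 9.64, 9.22 and 9.56 in fasted males. Fed and fasted arrays did not overlap in either sex, but the gap between the nearest arrays was small beside their spread. The change was -0.86 ± 0.25 in hermaphrodites (adjusted p = 0.0452) and -0.68 ± 0.25 in males (95% interval -1.23 to -0.14, adjusted p = 0.0617), where it was not called. Within the experiments it ran from -0.18 to -1.73 in hermaphrodites and from -0.18 to -0.98 in males. The call in hermaphrodites held in 11 of 23 alternatives (0.032 to 0.162) and ended without fed replicate 2 (0.0702) or 3 (0.154), fasted replicate 2 (0.105) or 3 (0.162), male fed replicate 2 (0.0642) or male fasted replicate 1 (0.0554), 2 (0.0531) or 3 (0.0546). It also ended when only hermaphrodite arrays were fitted (0.0638), in a fit with no variance trend (0.0746), with no filter (0.0538) and after quantile normalization (0.0662). In males ges-1 was called in 7 of 23 (0.0293 to 0.209), including after median centring (-0.90, 0.0317) and without hermaphrodite fed replicate 3 (0.0338) or male fed replicate 1 (0.0441).

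The acid phosphatase gene pho-1 fell in males. It stood at 6.20, 6.03 and 6.16 in fed and 5.35, 5.29 and 4.66 in fasted hermaphrodites, the latter all below the filter level of 6.01, and at 8.75, 8.14 and 7.58 in fed and 6.88, 6.71 and 6.22 in fasted males. Fed arrays lay above fasted arrays in each sex. In males the fall was 2.93-fold (-1.55 ± 0.32, adjusted p = 0.00335) and was called in all 22 alternatives that tested it, between -1.97 and -1.12. In hermaphrodites the difference of -1.03 ± 0.32 (95% interval -1.72 to -0.34) missed the threshold (adjusted p = 0.0568). It ran from -1.19 to -0.44 over 22 alternatives, with -0.44 at the larger of 2 pseudocounts, the 40th percentile of the signal. It passed the threshold with a replicate block (0.0178), after quantile normalization (0.0398) or median centring (0.0473), with array weights (0.0348) and without male fed replicate 1 (0.0441) or 3 (0.037), of a range of 0.0178 to 0.183. The other probe set of pho-1, 175238_s_at, gave -0.71 ± 0.45 in hermaphrodites (adjusted p = 0.363) and -1.39 ± 0.45 in males (adjusted p = 0.0352).

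The peptide transporter gene pept-1 was the member that rose in fasted males. Its signal there was 9.08, 9.30 and 9.64, against 8.65, 8.19 and 8.36 in fed males, and in hermaphrodites it was 7.13, 6.80 and 5.96 when fed and 6.38, 7.10 and 6.30 when fasted. Fed and fasted males did not overlap, whereas the hermaphrodite arrays were intermixed. The rise in males was 1.91-fold (0.94 ± 0.30, adjusted p = 0.0377). The difference in hermaphrodites was -0.04 ± 0.30 (95% interval -0.70 to 0.62, adjusted p = 0.959). In males the call held in 17 of 23 alternatives (0.00649 to 0.126) and ended without male fed replicate 2 (0.117) or 3 (0.0842), male fasted replicate 2 (0.0831) or 3 (0.126), after median centring (0.72, 0.113) and in a fit with no variance trend (0.0515).

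**Figure D2:**
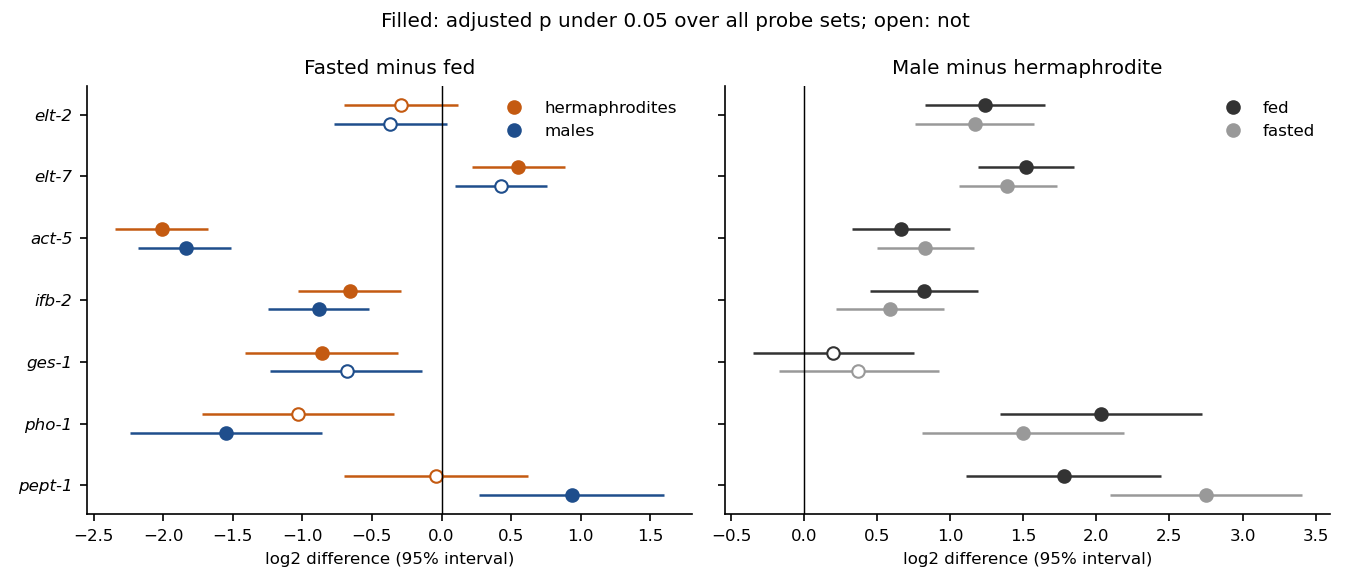
Log2 differences of the 7 genes with 95% intervals, fasted minus fed on the left (hermaphrodites orange, males blue) and male minus hermaphrodite on the right (fed dark, fasted grey); filled points had an adjusted p under 0.05 over all probe sets. The act-5 falls of -2.01 and -1.84 stand farthest from 0 on the left, and on the right ges-1 is the gene whose intervals include 0.

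Whether a response differed between the sexes was tested by the interaction of sex and food. By limma none of the 7 members was called, where 5.28% of all probe sets were called, 3.82% with the higher and 1.46% with the lower response in males, and 1 of 7 had an unadjusted p under 0.05. The higher share of these calls over all probe sets was 72.4% as deposited, 49.9% after quantile normalization and 39.2% after median centring. The member was pept-1, with a difference of 0.97 ± 0.43 (95% interval 0.04 to 1.91) and an adjusted p from limma of 0.206. For act-5 the response in males minus that in hermaphrodites was 0.17 ± 0.22 (-0.30 to 0.64), for ifb-2 -0.23 ± 0.24 (-0.75 to 0.30), for elt-7 -0.12 ± 0.22 (-0.59 to 0.34) and for elt-2 -0.07 ± 0.27 (-0.65 to 0.50). The intervals of ges-1 (0.17 ± 0.36, -0.60 to 0.95) and pho-1 (-0.52 ± 0.45, -1.50 to 0.45) were wider. A difference of 1 therefore lay outside the intervals of elt-2, elt-7, act-5, ifb-2 and ges-1 in either direction, and within those of pept-1 and pho-1.

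Other genes of the terminal web and apical cortex, from a list of 10 that were all tested, included further falls. Of all probe sets 5.69% were lower and 11.4% called in all in hermaphrodites, and 8.31% and 27.3% in males. In hermaphrodites 2 of 10 fell and none rose, with a list median of -0.17. These were the intestinal intermediate filament genes ifd-2 (-1.10 ± 0.18, adjusted p = 0.00159) and ifc-2 (-0.64 ± 0.14, adjusted p = 0.012). In males 3 of 10 fell and none rose, with a median of -0.30: ifc-1, from 7.41 ± 0.18 to 2.91 ± 2.22, ifc-2 (-1.02 ± 0.14, adjusted p = 3.08e-04) and bbln-1, which encodes a small coiled-coil protein of the intestinal filament network (-0.81 ± 0.20, adjusted p = 0.00981). The ifc-1 change of -4.50 ± 1.07 (adjusted p = 0.00821) ends far below the filter level, and it shrank to -1.56 once the 40th percentile of the signal was added as a pseudocount. The ifc-2 call in hermaphrodites ended without fed replicate 1 (0.0544, the highest of a range from 0.00571), and the list count there was 1 without that array and 4 without fasted replicate 2. The actin-membrane linker gene erm-1 was not called in either sex, at -0.14 and -0.45.

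Of 4 tested intermediate filament genes outside the intestine, 1 fell in hermaphrodites and 2 in males, beside 5.69% and 8.31% of all probe sets. The gene mua-6 fell in hermaphrodites (-2.14 ± 0.29, adjusted p = 3.90e-04), and in males mua-6 (-2.76 ± 0.29, adjusted p = 3.86e-05) and ifb-1 (-1.41 ± 0.29, adjusted p = 0.0035) fell. These encode filaments of the epidermis and of other epithelia. In hermaphrodites ifb-1 stood at -0.81 ± 0.29 (adjusted p = 0.0974), and ifa-1 and ifa-4 were not called in either sex. Beside them, the summed signal of 6 hypodermis markers was 4319 to 4674 in fed and 1702 to 1984 in fasted hermaphrodites, and 5436 to 7240 in fed and 1260 to 3125 in fasted males, and no value of the list was 0. Of its 4 tested genes 2 fell in each sex, the collagen gene dpy-4 in both (-1.50 and -1.81), nhr-23 in hermaphrodites (-0.61) and the collagen gene col-19 in males (-2.02), while nhr-23 was at 0.40 in males and was not called. The summed signal of 10 body wall muscle markers was 16417 to 21620 in fed and 11241 to 13797 in fasted hermaphrodites, and 44211 to 50569 in fed and 21085 to 23662 in fasted males. The part of these tissues in the changes of the members was not tested. The count of filament genes that fell in hermaphrodites was 2 without male fasted replicate 3 and with a replicate block.

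A list for nutrient and ion transport of the gut held 10 tested genes. Whole worms were measured, so the tissue in which a listed gene changed is not known. Of these genes 1 rose and none fell in hermaphrodites, with a median of 0.37, where 5.72% of all probe sets were higher. In males 3 rose and none fell, with a median of 0.30, where 19% were higher. The oligopeptide transporter family gene pept-3, a relative of pept-1, rose by 1.48 ± 0.35 in hermaphrodites (adjusted p = 0.0155) and by 1.86 ± 0.35 in males (adjusted p = 0.00205). By limma pept-2 of the same list was not called in hermaphrodites (0.17, adjusted p = 0.541) or in males (0.23, adjusted p = 0.285). The heme transporter gene hrg-1 rose in males by 1.33 ± 0.24 (adjusted p = 0.00157), and the metal transporter gene smf-3 by 1.21 ± 0.42 (adjusted p = 0.0477). The pept-3 call in hermaphrodites ended without fed replicate 2 (0.0572) or 3 (0.0535), fasted replicate 2 (0.0524) or 3 (0.0677) and after quantile normalization (0.0535), of a range from 0.00718 to 0.0677. No transporter rose in hermaphrodites in any of these 5 fits, 2 rose with a replicate block, and 1 fell without fed replicate 3. That of smf-3 ended in 11 of 23 alternatives (8.20e-04 to 0.131), among them the removal of any 1 male array (0.0759 to 0.121) or of hermaphrodite fasted replicate 1 (0.059). The apical proton pump gene vha-6 and nhx-2, a sodium-proton exchanger that works with PEPT-1, were not called for fasting in either sex.

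Among 12 other intestine-expressed genes, 6 fell and 2 rose in hermaphrodites, and 5 fell and 1 rose in males, with medians of -0.34 and -0.40. Of all probe sets, 5.69% were lower and 5.72% higher in hermaphrodites, and 8.31% were lower and 19% higher in males. In hermaphrodites the cathepsin B-like protease gene cpr-1 fell by 2.68 ± 0.24, the aspartic protease gene asp-1 by 2.12 ± 0.16 and the lysozyme gene lys-8 by 1.95 ± 0.16, with adjusted p from 2.80e-06 to 1.27e-05. The ferritin gene ftn-1 rose by 2.26 ± 0.51 (adjusted p = 0.0119), as did the metallothionein gene mtl-1, named here after its value was seen (1.84 ± 0.33, adjusted p = 0.00269). In males lys-8 fell by 1.31 ± 0.16, cpr-1 by 1.12 ± 0.24 and the sphingosine phosphate lyase gene spl-1 by 0.78 ± 0.17, while glo-3, a gene of gut granule formation, rose by 0.86 ± 0.14, with adjusted p from 1.10e-04 to 0.00493. The ftn-1 call ended without fed replicate 1 (0.0505) or 2 (0.05) or fasted replicate 3 (0.0545), of a range from 1.89e-04 to 0.0545, and without any of these 3 arrays the count of rises was 1.

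Other transcription factor genes were counted beside elt-2 and elt-7. None of 5 other GATA factor genes was called in hermaphrodites by limma (1 at an unadjusted p under 0.05), and in males elt-3, a factor of the epidermis, fell by 0.61 ± 0.14 (adjusted p = 0.00612). Of 8 intestinal regulators outside the GATA family none was called in hermaphrodites (2 at an unadjusted p under 0.05). There 11.4% of all probe sets were called. In males 1 of 5 GATA genes and 3 of 8 other regulators were called, beside 27.3% of all probe sets. The nuclear receptor gene nhr-49 rose by 0.59 ± 0.15 (adjusted p = 0.0115) and the Mediator subunit gene mdt-15 by 0.72 ± 0.19 (adjusted p = 0.0139), both of which act in fat metabolism, while mxl-3, a repressor of lipase genes, fell by 1.03 ± 0.28 (adjusted p = 0.0155). After median centring neither nhr-49 (0.0871) nor mdt-15 (0.0814) was called. The mdt-15 call also ended without male fasted replicate 1 (0.0593), and that of mxl-3 without male fasted replicate 2 (0.068) or 3 (0.0618), where the ranges were 7.19e-04 to 0.0871 for nhr-49, 0.0036 to 0.0814 for mdt-15 and 9.41e-04 to 0.068 for mxl-3.

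**Figure D3:**
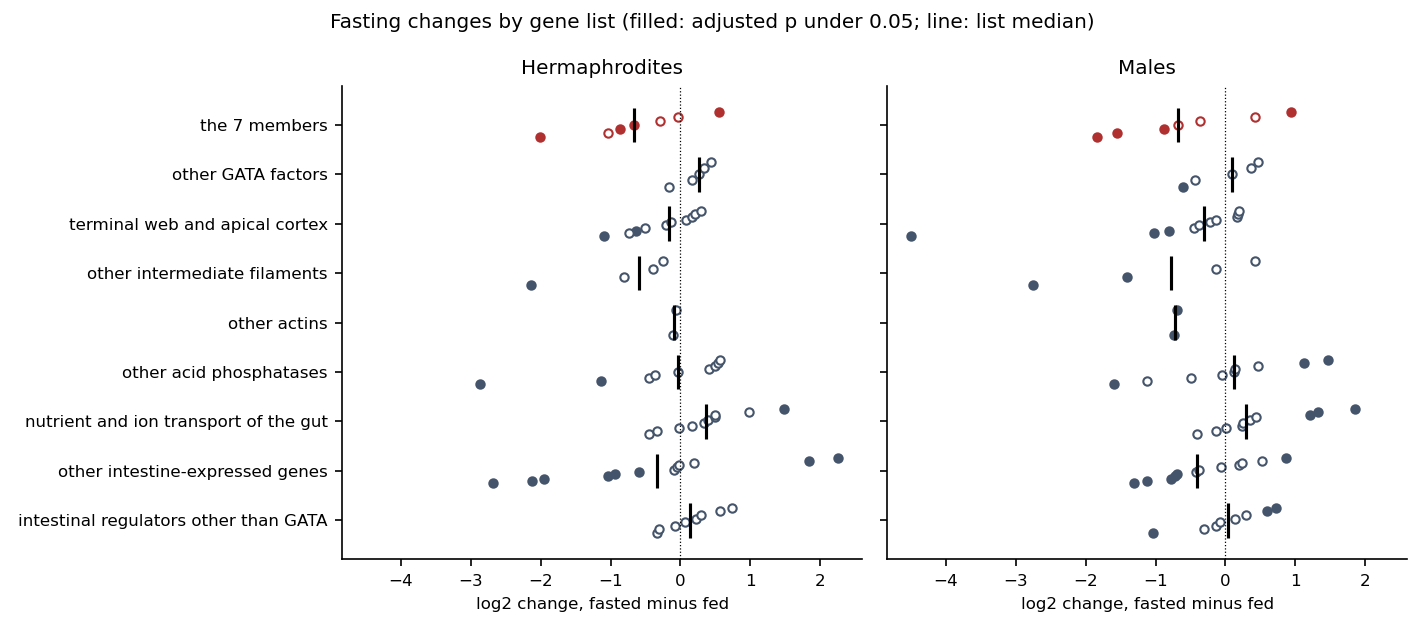
Log2 change with fasting (horizontal axis) of each tested gene of the 7 members (red) and of 8 related lists (blue) in hermaphrodites and males; filled points had an adjusted p under 0.05 and black lines are list medians. The transport list has rises and no called falls, while the called genes of the terminal web and of the other filament lists all lie below 0.

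The sexes differed at 6 of the 7 members, always with the higher signal in males. In fed worms 6 of 7 were higher in males and none lower, where 38.9% of all probe sets were higher, 35.9% lower and 74.8% differed in either direction. In fasted worms the same 6 were higher, where 38% were higher, 32.7% lower and 70.7% differed. For these 6 the arrays of the sexes did not overlap in fed or in fasted worms, as for 78.3% and 74.3% of all probe sets. Since most of the array differed by sex, the number called says little about these genes, and the sizes are given. The median difference of the 7 was 1.24 in fed and 1.17 in fasted worms, against 0.13 and 0.12 for all probe sets. After quantile normalization the latter were -0.07 and -0.12.

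The order of the 4 groups was not the same for all members. For elt-2, elt-7, pho-1 and pept-1 both male groups lay above both hermaphrodite groups, and every male array lay above every hermaphrodite array. For act-5 and ifb-2 the order from the top was fed males, fed hermaphrodites, fasted males and fasted hermaphrodites. Fed hermaphrodites and fasted males did not overlap for act-5 and did for ifb-2, where the means were 0.07 apart. For ges-1 the order was the same as for act-5, but each group overlapped its neighbour.

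Among the transcription factors, elt-2 was 2.36-fold higher in fed males (1.24 ± 0.19, adjusted p = 6.40e-05) and 2.24-fold higher in fasted males (1.17 ± 0.19, adjusted p = 1.20e-04). Its other probe set gave 1.09 ± 0.42 and 1.25 ± 0.42, with adjusted p of 0.0318 and 0.0174. The male signal of elt-7 was 2.87-fold higher in fed worms (1.52 ± 0.15, adjusted p = 1.70e-06) and 2.63-fold higher in fasted worms (1.39 ± 0.15, adjusted p = 4.33e-06).

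The structural genes differed less in size. For act-5 the difference was 0.66 ± 0.15 in fed (adjusted p = 0.00177) and 0.83 ± 0.15 in fasted worms (adjusted p = 3.60e-04), and for ifb-2 it was 0.82 ± 0.17 (adjusted p = 8.09e-04) and 0.59 ± 0.17 (adjusted p = 0.00764). The call of ifb-2 in fasted worms ended after median centring (0.34, adjusted p = 0.0903, the highest of a range from 0.00287). No call of a sex difference of elt-2, elt-7 or act-5 ended in any of the 23 alternatives.

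The widest range lay among the enzymes and the transporter. The pho-1 signal was 4.07-fold higher in fed males (2.03 ± 0.32, adjusted p = 8.40e-05) and 2.83-fold higher in fasted males (1.5 ± 0.32, adjusted p = 9.85e-04). The latter was 0.71 once the 40th percentile of the signal was added and 0.91 after quantile normalization, both still called. The pept-1 signal was 3.42-fold higher in fed males (1.78 ± 0.30, adjusted p = 1.80e-04) and 6.72-fold higher in fasted males (2.75 ± 0.30, adjusted p = 4.76e-06). For ges-1 the difference was 0.20 ± 0.25 in fed (95% interval -0.35 to 0.75, adjusted p = 0.486) and 0.37 ± 0.25 in fasted worms (-0.17 to 0.92, adjusted p = 0.20), and the arrays of the sexes overlapped.

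Tissue markers of several other somatic tissues were also higher in males, beside 38.9% of all probe sets higher and 35.9% lower in fed worms. In fed worms all 9 tested body wall muscle genes, all 5 pharynx genes and 8 of 9 neuron genes were higher in males, with medians of 1.59, 1.95 and 2.46, and 3 of 5 genes of the excretory cell, which also expresses act-5, were higher, with a median over all 5 of 1.19. Hypodermis genes had a median of -0.15, with 1 of 4 lower and none higher. All 11 oocyte and maternal genes were lower in males (median -5.06) and all 7 sperm genes higher (median 4.78). The summed signal of the neuron list was 7658 to 8467 in fed hermaphrodites and 20055 to 21537 in fed males, that of the pharynx list 884 to 1387 and 3297 to 3679, and that of the 7 members 4410 to 5189 and 7655 to 8787. The part of tissue proportions in the sex differences of the members was not tested.

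**Figure D4:**
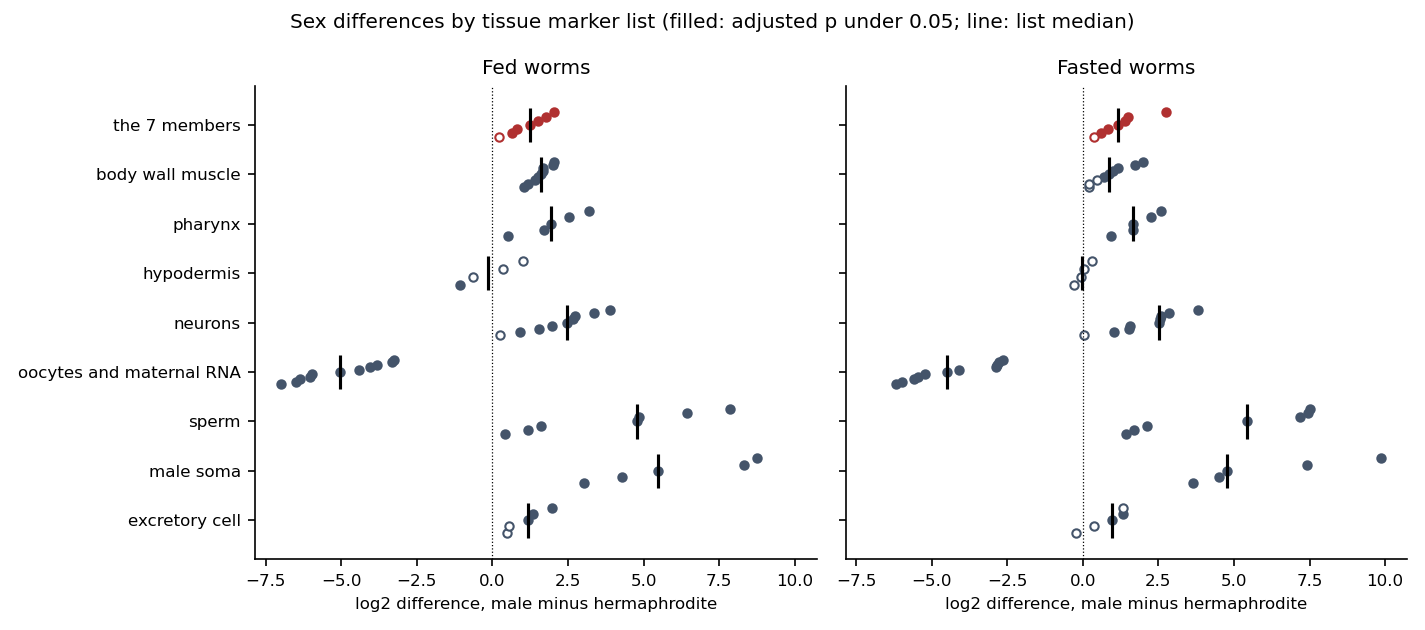
Log2 difference between males and hermaphrodites (horizontal axis) of each tested gene of the 7 intestine members (red) and of 8 tissue marker lists (blue), in fed worms on the left and fasted worms on the right; filled points had an adjusted p under 0.05 and lines are list medians. The medians of the members, 1.24 and 1.17, lie near those of body wall muscle, 1.59 and 0.86, and excretory cell, 1.19 and 0.97, and far from oocyte genes at -5.06 and -4.50.

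Genes of the related intestinal lists were mostly higher in males too. Of all probe sets 38.9% were higher and 35.9% lower in fed males, and 38% and 32.7% in fasted males. Of the terminal web list 6 of 10 were higher in fed males and 6 in fasted males, with medians of 0.79 and 0.77 and none lower, except for 1 in fasted males after quantile normalization. In fed worms ifc-2 differed by 1.18 ± 0.14. Levels of ifc-1 (1.22 ± 0.23) and ifp-1 (5.69 ± 0.67) in fed hermaphrodites lay below the filter level of 6.01, so that the sizes of their differences depend on the scale. These were 6.19 ± 1.07 for ifc-1 and 1.56 ± 0.32 for ifp-1 as deposited, and 1.81 and 0.87 with the 40th percentile of the signal added as a pseudocount. Of 10 transport genes 7 were higher in fed and 8 in fasted males, with medians of 1.35 and 1.57 and none lower on the deposited scale, where quantile normalization or median centring gave 1 lower in fed and 2 in fasted males. In fed worms the zinc transporter gene cdf-2 differed by 2.32 ± 0.17. The difference of smf-3 was 2.15 ± 0.42 against a level of 4.79 in fed hermaphrodites, below the filter level, and 0.98 with the larger pseudocount. Of 12 other intestine-expressed genes 10 were higher in fed males (median 1.08), among them ftn-1 (3.67 ± 0.51) and cpr-1 (1.64 ± 0.24). In fasted males 10 of them were higher (median 1.25) and 1 was lower, mtl-1 (-2.06, adjusted p = 1.13e-04). With the filter at the 60th percentile, which dropped dim genes, 3 of the terminal web list were higher in fed males.

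Of 5 other GATA genes, 1 was higher and 1 lower in fed males, beside 38.9% and 35.9% of all probe sets. The gene elt-3 was higher in fed males (1.34 ± 0.14, adjusted p = 2.07e-06), and egl-18, a factor of the epidermal seam and vulva, was lower (-2.54 ± 0.48, adjusted p = 3.96e-04). The endoderm-specifying gene end-1 was lower in fasted males (-1.27 ± 0.38, adjusted p = 0.0101), as were elt-6 (-0.68 ± 0.25, adjusted p = 0.0302) and egl-18 (-2.24 ± 0.48, adjusted p = 0.00112). The elt-6 call ended without hermaphrodite fasted replicate 2 (0.0941) or 3 (0.0699) or male fasted replicate 1 (0.0517) or 2 (0.0903), of a range from 0.00394 to 0.0941. In fed worms 1 of 5 was lower, and 3 were lower without male fed replicate 3 or after quantile normalization. Of 8 intestinal regulators outside the GATA family 5 were higher and 1 lower in fed males, and 5 higher and 2 lower in fasted males. In fasted worms 38% of all probe sets were higher and 32.7% lower. The zinc finger factor gene pqm-1 was higher in males by 1.75 ± 0.12 in fed and 1.98 ± 0.12 in fasted worms. The gene hlh-30 was higher by 1.98 and 1.53. Lower in males were nhr-49 (-0.98 in fed and -0.6 in fasted worms) and skn-1 (-0.88 in fasted worms).

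The profiles of the members over the 12 arrays resembled different genes. Likeness was measured as Pearson's r over the 12 arrays against 5766 genes, and because the arrays form 4 groups, r mainly reflects the order of the groups. For elt-7 the nearest genes were kin-14 (r = 0.995), spe-47 (0.992) and clec-7 (0.989), and 732 genes had r above 0.9. For elt-2 they were far-1 (0.978), lbp-3 (0.976) and rpl-11.2 (0.975), and for pept-1 hpo-38 (0.980), dmsr-1 (0.974) and fbxb-36 (0.970). The profile of act-5 was nearest to ugt-26 (0.981), folt-2 (0.974) and ctsa-1.2 (0.972), and that of ifb-2 to unc-87 (0.973), the terminal web gene ifc-2 (0.970) and clec-265 (0.965). For pho-1 they were lgc-32 (0.970), fbxl-4 (0.966) and ugt-48 (0.963). The profile of ges-1 stood most alone, with kola-4 (0.916) as the single gene above 0.9, then clec-50 (0.889) and sph-1 (0.887).

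Among the members themselves, r over the 12 arrays was 0.92 between elt-7 and pept-1, 0.90 between ifb-2 and pho-1 and 0.88 between act-5 and ifb-2. It was 0.81 between elt-2 and elt-7, and 0.03 between elt-7 and act-5. As deviations from the group means, which leave out the groups, the same pairs gave 0.20, 0.07, 0.33, 0.48 and -0.34. These are descriptions over arrays that the genes share.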

How the data were processed

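RNA of whole worms was extracted with Trizol and purified with DNase treatment, and 250 ng was labelled with 16 h of in vitro transcription, per the labels' protocols. The authors deposited log2 values, and the submitters' processing notes name MAS5 for them without a version. With 2% trimmed at each end, the mean linear signal was 500.13 to 500.21 on the 12 arrays, and 1171 values were exactly 0. Detection calls were not used here.

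The values were not normalized further. Of 22625 probe sets, 77 controls were left out. Of the rest 20766 had 1 gene, 887 several and 895 none in the platform annotation, with symbols updated through the gene table of assembly WBcel235. The filter kept the 15913 probe sets that exceeded log2 6.01, the 40th percentile over the whole table, on 3 or more arrays. Group means were fitted across all 12 arrays with limma 3.58.1 in R 4.3.3 (eBayes with a trend, 12.2 degrees of freedom, two-sided). Tested on simulated data for fasting in hermaphrodites over 15913 probe sets, the fit called 44% of 100 changes of 1 and 87% of 100 changes of 2 (log2), with 13 false calls. The simulation held no other changes, whereas 11.4% of all probe sets were called in the data. The adjustment for multiple tests depends on that share, so the simulated shares need not hold for the data. Python 3.11.15, pandas 2.3.3, numpy 2.4.6 and matplotlib 3.10.9 made tables and figures. No genome was used.

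The labels call the samples biological replicates. Arrays of the same number were checked for pairing by the correlation of their deviations from the group means. It was 0.129 to 0.259 between fed and fasted hermaphrodites and 0.119 to 0.274 in males, above 0.1 in every pair, and 0.0525 to 0.204 between the sexes. A replicate block was therefore fitted as an alternative. Other alternatives were pseudocounts of 64.6 and 20.1, no filter, a filter at the 60th percentile (log2 7.73), quantile normalization, median centring, scaling on hybridization controls, no trend, only the arrays compared, array weights, and leaving out each array.

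The members and the lists were chosen with earlier results of these data known. Named are the members, of each list up to 4 called genes with the largest change per comparison, and for each member the 3 genes with the highest r among tested genes with a locus name and a group mean above log2 7.73. For a list gene with several probe sets the one of highest mean was taken.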

Additional observations from a re-analysis of the deposited data

Results flagged for a closer look

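By the interaction of sex and food in the limma fit, 4 of 60 tested genes of the related lists (6.67%) and none of the 7 members were called, where 5.28% of all probe sets were called, so that the share of the lists is near that of the array. For the aspartic protease gene asp-1 the response in males minus that in hermaphrodites was 2.05 ± 0.22 (adjusted p = 8.48e-04). Its signal went from 14.37 ± 0.09 to 12.25 ± 0.08 in hermaphrodites and from 15.21 ± 0.29 to 15.14 ± 0.27 in males. For cpr-1 the difference was 1.56 ± 0.34 (adjusted p = 0.0236), and the call ended in a fit with no variance trend (0.0506) and without hermaphrodite fed replicate 2 (0.0518), hermaphrodite fasted replicate 3 (0.0572) or male fed replicate 1 (0.0562), of a range from 0.00804 to 0.0572. For the terminal web gene ifd-2 it was 1.27 ± 0.26 (adjusted p = 0.0181), from 8.20 ± 0.14 to 7.09 ± 0.24 in hermaphrodites and from 8.25 ± 0.25 to 8.42 ± 0.18 in males, and it was not called after quantile normalization (0.0846, the highest of a range from 0.00715). For the gut granule gene glo-3 it was 0.95 ± 0.20 (adjusted p = 0.0203), and the call ended without hermaphrodite fed replicate 1 (0.0531) or male fasted replicate 2 (0.0525) and on hybridization controls (0.0747), of a range from 0.00977 to 0.0747.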

How the results depend on the processing

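Of 810 values of the 7 members under the alternatives, 742 kept their direction and their side of the threshold, 34 lost and 21 gained a call, and 13 changed sign, none of them called. In hermaphrodites 4 members were called for fasting, 2 in a fit with no variance trend, 1 when only hermaphrodite arrays were fitted, and 1 to 5 when 1 array was left out, and act-5 was called in every fit. In males 4 were called and 3 to 5 when 1 array was left out. Sign changes were as follows. The fasting difference of pept-1 in hermaphrodites ran from -0.37 to 0.22 with 1 array left out. The difference between the sexes in the fasting response ran from -0.25 to 0.09 for elt-2, from -0.23 to 0.01 for elt-7 and from -0.08 to 0.36 for ges-1 with 1 array left out, and it was 0.01 for elt-2 with array weights, 0.16 with its probe set 175269_at, and -0.03 for ges-1 after quantile normalization. The sex difference of ges-1 in fed worms was -0.01 on hybridization controls. The replicate block gained the calls of pho-1 in hermaphrodites (-1.03, adjusted p = 0.0178) and elt-7 in males (0.43, 0.0438) and changed no other call of a member. Over all probe sets, 840 responses differed between the sexes, 354 on hybridization controls, 1641 with the replicate block, 1522 with array weights and 428 to 899 with 1 array left out. With the filter at the 60th percentile pho-1 was not tested. The cause of these shifts was not tested.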

Other observations

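The acid phosphatase family of pho-1 was spread widely by sex and food. Of 9 other tested genes, 5 were higher and 3 lower in fed males, where 38.9% and 35.9% of all probe sets were. The differences of pho-6 (2.95 ± 0.23) and pho-10 (2.85 ± 0.35) are against levels of 5.59 and 5.05 in fed hermaphrodites, below the filter level of 6.01, and were 1.94 and 1.66 with the larger pseudocount. In the other direction, pho-11 had a signal of 10.75 ± 0.43 when hermaphrodites were fed and of 4.47 ± 0.40 when males were (-6.28 ± 0.34, adjusted p = 7.09e-09). The male level is below the filter level, and the difference was -4.36 with the larger pseudocount. With fasting pho-14, which has a bright signal, fell from 13.16 ± 0.40 to 12.02 ± 0.11 in hermaphrodites (adjusted p = 0.00776) and from 12.44 ± 0.51 to 10.85 ± 0.15 in males (adjusted p = 4.51e-04). In hermaphrodites pho-8 also fell (-2.87 ± 0.56, adjusted p = 0.00508), from 6.82 ± 0.72 to 3.95 ± 1.25. The fasted level is below the filter level. The pho-8 change ran from -3.25 to -1.12 over 22 alternatives, with -1.12 at the larger pseudocount. In males pho-9 rose by 1.47 ± 0.36 (adjusted p = 0.00999). The rise of pho-11 in males (1.13 ± 0.34, adjusted p = 0.0279) ended in 9 of 23 alternatives (0.00464 to 0.27), among them the removal of male fed replicate 1 (0.105) or 2 (0.0552) or male fasted replicate 2 (0.0731) or 3 (0.103), each of which left 1 rise in the list.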
